A study of Mus musculus with 3 samples.

Results

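The chaperonin CCT (also TRiC) is a cytosolic protein-folding machine whose subunits are encoded by 8 genes, Tcp1, Cct2, Cct3, Cct4, Cct5, Cct6a, Cct7 and Cct8. Each subunit occurs once in each of the stacked rings of the complex, which close around an unfolded protein in a cycle driven by ATP. Actin and tubulin are its best known clients, and the phosducin-like proteins and prefoldin work with it. These 8 genes were chosen by name, with earlier results on the use of their poly(A) sites known, out of 22041 genes with at least 1 listed site. A member's sites were all listed sites on its strand from the gene start to 1000 bases past the gene end in GENCODE M21 (mm10), which gave 92 of the 178115 sites in the series.

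The sites come from poly(A) site sequencing (PAS-seq, here with the QuantSeq protocol), in which a read marks the 3′ end of a polyadenylated RNA. The material was F121-9, a hybrid mouse embryonic stem cell line of the CAST and 129 strains, at passage 14 and with 500 ng of RNA per library. There was 1 group of 3 libraries, called biological replicates 1, 2 and 3 in the labels, with no treatment, no other genotype and no control line. The labels do not say whether they came from separate cultures, so every SD below (n = 3 unless stated) may be partly technical, and no condition could be compared.

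The libraries held 10147672, 13513327 and 13040620 reads at listed sites, recovered from the deposited RPM (reads scaled to the library total). In replicate 3 only 216 reads lay outside the 19 autosomes, against 821582 and 1012989 in replicates 1 and 2. All 8 members are autosomal. The line's label was checked against markers: 7 of 8 pluripotency genes reached 10 RPM, led by Nanog (724 ± 133), Sox2 (611 ± 89.3) and Esrrb (299.96 ± 41.0), while Dppa5a stood at 0.314 RPM. Of the fibroblast or feeder genes 1 of 7 did, Thy1 (84.4 ± 37.1), and their summed level was 81.4, 50.8 and 133 RPM. Of the same 7 genes, Dcn and Postn had no listed site, and Col3a1 and Lum averaged 0.0898 and 0.142 RPM. In replicates 1, 2 and 3, Col1a1 had 0.0902, 0.606 and 6.11 RPM and Col1a2 had 0, 1.08 and 3.27 RPM. No gene of 4 endoderm, 4 mesoderm or 3 neuroectoderm markers reached 10 RPM, and 1 of 3 trophoblast markers did (Krt7, 10.3 RPM).

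Cleavage and polyadenylation take place a short way downstream of a poly(A) signal, usually the hexamer AATAAA or its commonest variant ATTAAA, and a gene with several such sites can make transcripts with 3′ untranslated regions of different length. The sequences of the most used site of each CCT gene are given first, because the signal class, the site's place and the Tcp1 copy described below all refer to them. Each is 30 bases of GRCm38 (mm10) on the gene's strand, 5′ to 3′, beginning 4 bases before the signal, which is in capitals.

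Tcp1: tcacATTAAAgtacagcaagctgaccacct
Cct2: ttaaAATAAAaatccagttacttagccctt
Cct3: aatgATTAAAtctaagtcatttgagaccgt
Cct4: aaacATTAAAtacttggttttaaactccat
Cct5: actaAATAAAgggtgtgtctgttgtgctgc
Cct6a: gtctAATAAAtacttaaagagtgaagctac
Cct7: tttaAATAAAgcttaaggttatttgcttgg
Cct8: gtacAATAAAtgtgttactgttatggccgt

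The 8 genes were read at unequal levels. Levels here are RPM summed over a gene's sites, and since a read is counted once per 3′ end they are not scaled by length. Cct7 gave 1720, 1525 and 2434 RPM in replicates 1, 2 and 3, and Cct8 gave 1583, 1814 and 1455 RPM. These are the subunits η and θ. Together they took 27.4% ± 5.30 and 23.7% ± 3.64 of all CCT reads, where an even split would give each gene 12.5%. The ranges of the 2 genes overlapped: Cct7 was higher in 2 of 3 libraries, with a log2 difference of 0.20 ± 0.50.

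In the middle of the range were 4 genes. Cct5 (subunit ε) gave 709, 766 and 883 RPM, Cct3 (γ) 639.8, 685 and 691 RPM, and Cct4 (δ) 689, 715 and 584 RPM. Cct6a (ζ) gave 630.0, 595 and 670.3 RPM. Cct5 was above Cct3 in 3 of 3 libraries, but by a log2 difference of 0.22 ± 0.11, within 2 SD. Cct3 and Cct4 (0.03 ± 0.19) and Cct4 and Cct6a (0.07 ± 0.24) changed places between libraries.

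The lowest levels were those of Cct2 (β), with 348, 394 and 416 RPM, and Tcp1 (α), with 217, 217 and 209 RPM. Here the gaps were wider than the spread. Cct8 exceeded Cct5 by 1.04 ± 0.28 (log2), Cct6a exceeded Cct2 by 0.71 ± 0.13, and Cct2 exceeded Tcp1 by 0.84 ± 0.15, each in 3 of 3 libraries. From Cct7 (1893 ± 479 RPM) to Tcp1 (214 ± 4.54 RPM) the means differed 8.83-fold. The Tcp1 value depends on a second locus described next. The order is a description, and no test was made of it.

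**Figure D1:**
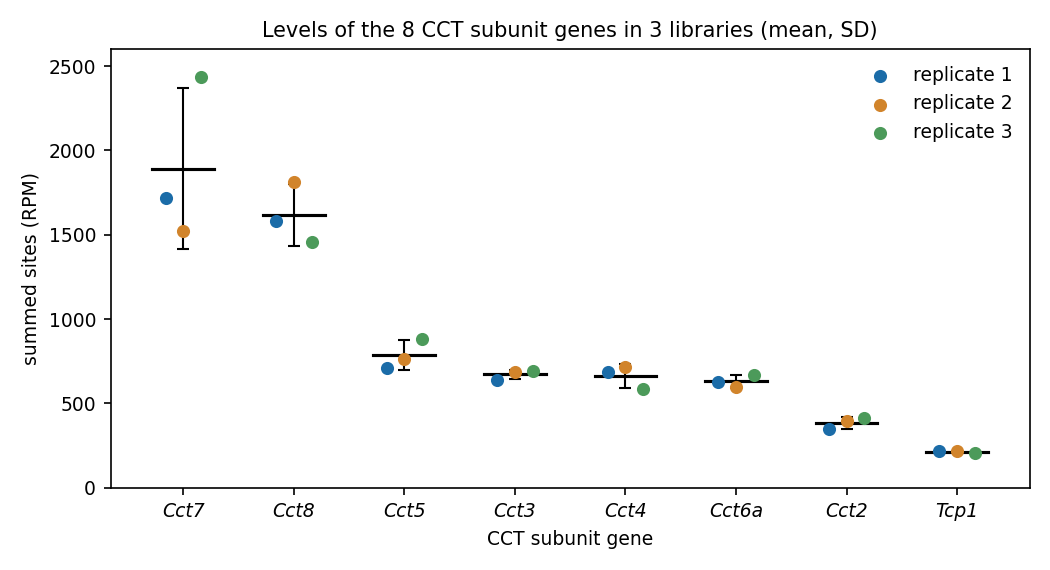
Level of each CCT gene (RPM summed over its sites, linear axis) in replicates 1, 2 and 3 (points), with the mean (line) and SD (whiskers), ordered by mean. Cct7 and Cct8 lie at 1455 RPM or above in every library, Cct5, Cct3, Cct4 and Cct6a between 584 and 883, and Tcp1 between 209 and 217.

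Among 7742 autosomal genes at 10 RPM or more, Cct7 ranked at 38 and Cct8 at 44, and the 6 other members at 106, 132, 134, 151, 292 and 659. Summed over the 8 genes, CCT transcripts made up 6535, 6710 and 7342 RPM (6862 ± 424). Scaled to autosomal reads in place of all reads the sums were 7768, 7974 and 7918, so that the higher value of replicate 3 was no longer the highest. The coefficient of variation between libraries had a median of 9.70% over the members, beside 10.9% for 1649 genes at 100 RPM or more.

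Cct7 was the member that varied most, and it did so in replicate 3. Its level there was 0.59 (log2) above the mean of the other libraries, a larger difference than in 97.0% of genes at 100 RPM or more, whose median was 0.12. Cct8 and Cct4 went the other way in the same library, by -0.22 and -0.26, values with 8.61% and 6.12% of such genes below them. After scaling to autosomal reads the differences were 0.44 for Cct7, -0.36 for Cct8 and -0.41 for Cct4, against a median of -0.02. Without replicate 3, Cct8 and not Cct7 had the highest mean. The part that the missing chromosomes of replicate 3 play in this was not tested.

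Tcp1, the gene after which the family was first named, has a near-identical second copy of its 3′ end on the same chromosome. Bases 12924388 to 12924970 of chromosome 17, in the terminal exon of Tcp1 (plus strand), align at 96.8% identity over 592 columns to bases 12943590 to 12944181. This copy lies inside Acat2 (12942890 to 12960747, minus strand), a gene of the acetyl-CoA acetyltransferase family, but on the strand opposite to it. Of the last 100 bases before the most used Tcp1 site, 1 differs in the copy. It is the substitution A24T, counted from 1 at the 5′ end of the printed window, with the Tcp1 base first. The signal, in capitals, is the same in both.

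Tcp1 site: tcacATTAAAgtacagcaagctgaccacct
Copy in Acat2: tcacATTAAAgtacagcaagctgtccacct

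More reads were listed at the copy than at Tcp1 itself. Its site at base 12943760, 19202 bases from the Tcp1 site, had 695, 604 and 702 RPM (667 ± 55.0). The most used Tcp1 site, at base 12924558, had 140, 134 and 143 RPM. The ratio of copy to Tcp1 site was 4.80 ± 0.255, and the values of the 2 sites did not overlap. Reads at Tcp1 and at the copy added up to 912, 821 and 911 RPM (881 ± 52.4). With that sum, chosen after seeing the data, Tcp1 would stand next after Cct8 in the order, in place of last, and the CCT total would be 7529 RPM.

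Of the 7742 genes at 10 RPM or more, 5.54% have another copy of at least 98% identity of the last 100 bases before their most used site, and 0.22% have more reads listed at such a copy than at their own site. Tcp1 and Cct4 are in the first set, and Tcp1 alone of the 8 members is in the second. The treatment of reads matching several places is not stated in these sources. Neither the level of Tcp1 nor its share of CCT reads is therefore certain. Acat2 itself had 259 ± 33.8 RPM on its own strand. Acat3, which overlaps the last 1255 bases of Tcp1 on the opposite strand, was listed at 0 in each library.

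**Figure D2:**
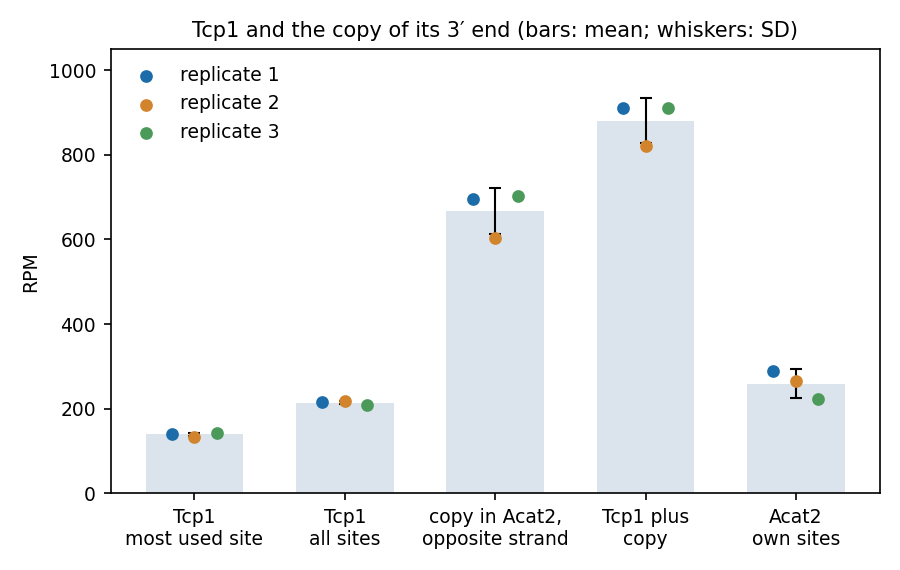
RPM in 3 libraries (points; bars are means from 0, whiskers SD) of the most used Tcp1 site, all Tcp1 sites, the site at the copy on the strand opposite to Acat2, the sum of Tcp1 and copy, and the sites of Acat2 itself. The copy, at 604 to 702 RPM, stands above all Tcp1 sites together, at 209 to 217.

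For the other members such copies held few or no reads. A 98.99% copy of the Cct4 end in Xkr4 on chromosome 1 had 5.26 RPM, beside 663 for Cct4. Copies of the Cct6a end (91.5% identity, chromosome 14) and the Cct7 end (92.2%, X) had no listed site. No copy of at least 90% identity over at least 90 bases was found for Cct2, Cct3, Cct5 and Cct8. The annotated pseudogene Tcp1-ps1 had no listed site, and Cct3-ps1 had 0.0224 RPM.

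Nearly all CCT reads ended in the terminal exon: 99.1% to 99.98% of a gene's reads in Cct3, Cct4, Cct6a, Cct7 and Cct8, 97.4% in Cct5, 91.6% in Tcp1 (without a site assigned to a snoRNA gene within it) and 87.3% in Cct2. Of the 92 sites, 37 were read in all 3 libraries and carried 99.75% of the reads, while 35 were read in 1 library. The most used site held at least 80% of reads in 6 of 8 members, beside 61.1% of genes at 10 RPM or more. The median of its share was 86.5% over the 8 members and 88.3% over those 7742 genes. It held 99.8% ± 0.0880 in Cct3, 98.6% ± 0.408 in Cct4 and 94.6% ± 0.802 in Cct7. Reads were most spread over sites in Tcp1 and Cct5, where the most used site held 64.8% ± 3.30 and 68.1% ± 3.52. The Tcp1 share carries the uncertainty of the copy. With the reads at the copy added it would be 91.4% ± 1.44, above the 80% used here.

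**Figure D3:**
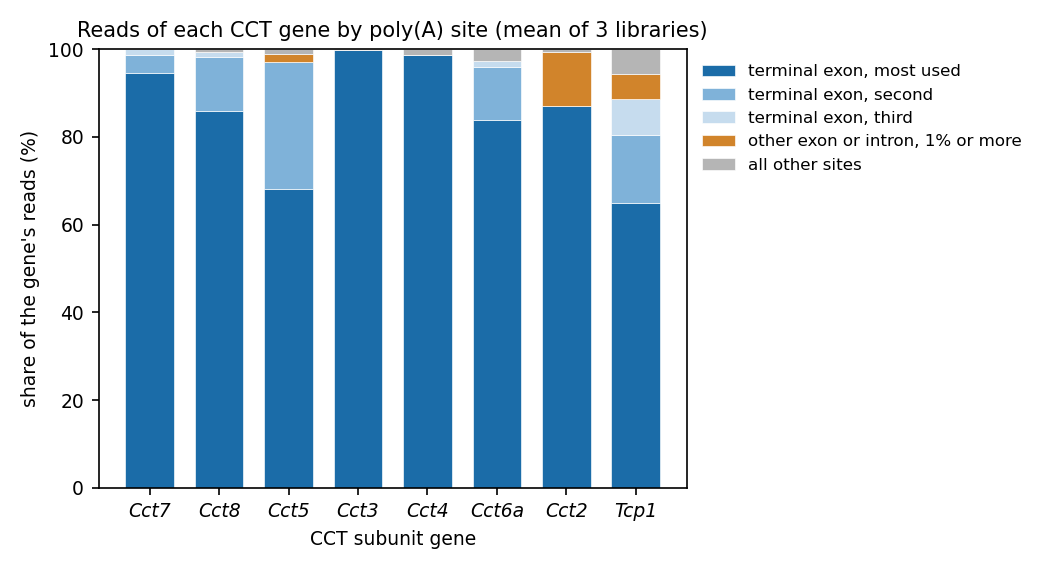
Share of each CCT gene's reads (%, mean of 3 libraries) at each of up to 3 terminal-exon sites of 1% or more, from the most used down, at sites of 1% or more in another exon or an intron, and at all other sites. A single site takes nearly the whole of Cct3 and Cct4, another terminal-exon site takes a large share of Cct5, and an internal-exon site takes 12.2% of Cct2.

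The signal before the most used site was AATAAA in 5 of 8 members (Cct2, Cct5, Cct6a, Cct7 and Cct8), against 66.4% of genes at 10 RPM or more. It was ATTAAA with no AATAAA in 3 of 8, Tcp1, Cct3 and Cct4, against 15.2%. No member's most used site had a rarer hexamer or none, classes that hold 13.7% and 4.66% of genes. With 8 genes these shares carry wide counting error, and no test was made. The signal lay 19 to 32 bases before the site, nearest in Cct2 and Cct3 and farthest in Cct8. At Cct2 an ATTAAA stood 24 bases before the site as well.

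The most used ends lay close to the stop codon. The distance was 45 bases in Cct5, 82 in Tcp1, 117 in Cct7, 126 in Cct8, 185 in Cct4, 218 in Cct3, 240 in Cct2 and 545 in Cct6a. Their median of 155.5 bases compares with 631 over 6859 genes at 10 RPM or more, whose quartiles were 261.5 and 1379.5. Over 1471 genes at 100 RPM or more the median was 403, with quartiles of 169.5 and 989.5. Cct5, Tcp1, Cct7 and Cct8 lay below that lower quartile, and Cct4, Cct3, Cct2 and Cct6a lay above it. Only 1.91% of the 6859 genes had a shorter distance than Cct5. Of the 1471 genes, 2.79% had a shorter distance than Cct5. That share was 27.4% for Cct4, 32.2% for Cct3, 34.6% for Cct2 and 58.3% for Cct6a. Cct6a, annotated in GENCODE M21 without a coding sequence and measured here from its RefSeq stop codon, was the one member longer than the median of the highly expressed genes. Averaged over all reads after the stop codon, the length was 213 ± 12.1 bases in Tcp1, 65.2 ± 2.06 in Cct5 and 504.7 ± 4.69 in Cct6a. The Tcp1 average leaves out the reads at the copy and would be shorter if they belonged to its most used site.

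**Figure D4:**
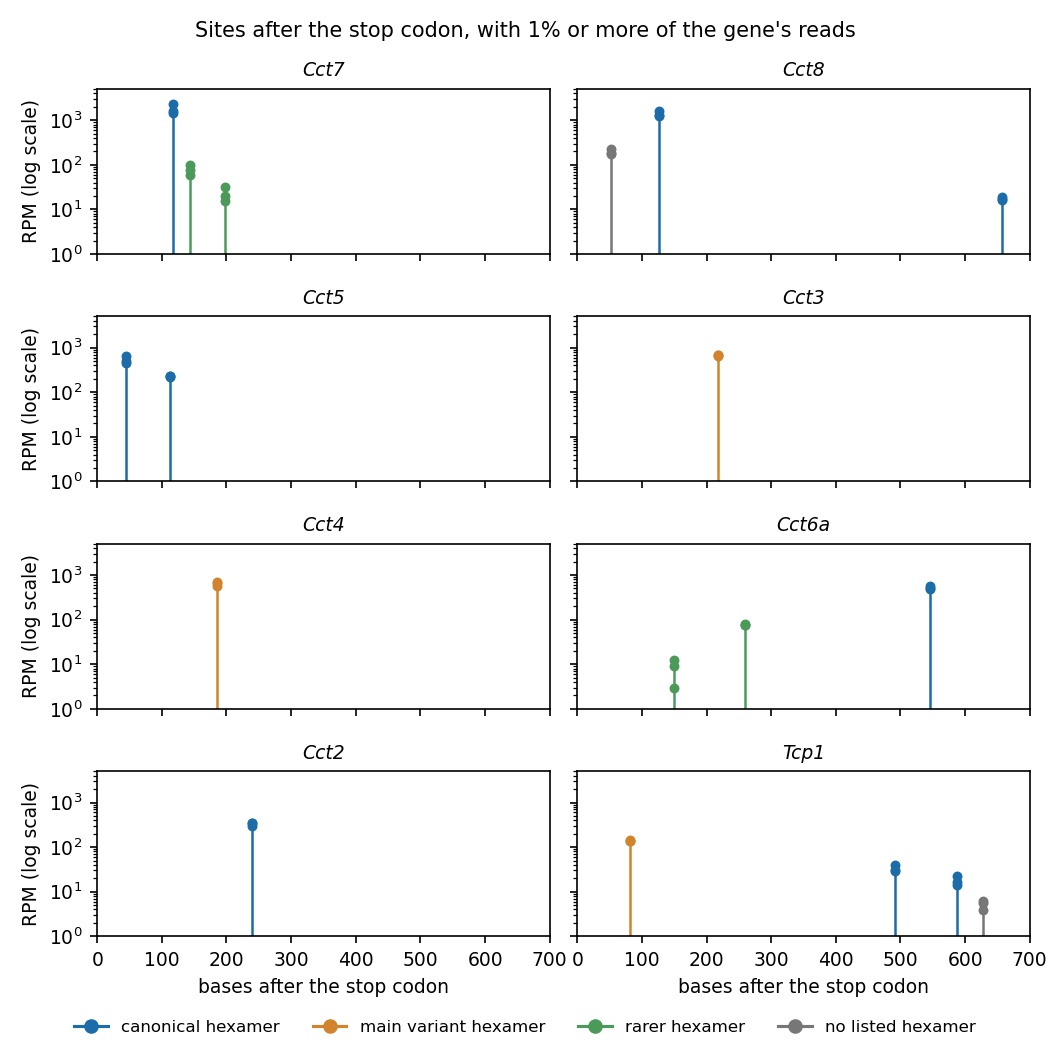
Sites after the stop codon with 1% or more of a CCT gene's reads, by distance from the stop codon (bases) and RPM on a log axis; points are the 3 libraries, stems reach the mean and start at 1 RPM, and colour gives the signal class. Most used sites lie 45 to 240 bases after the stop in every member but Cct6a, at 545.

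In 4 members there was a pair of terminal-exon sites that each held 5% or more of its reads (Tcp1 had 3 such sites), which allowed their distal and proximal ends to be compared within each library. Since this contrast was known when the genes were chosen, its values are a description. Over 4666 genes fitted together with limma, 28.9% were called distal and 12.8% proximal (adjusted p under 0.05 and at least 2-fold), and the median log2 ratio of the most distal to the most proximal site was 1.13. Cct6a and Cct8 were among the distal calls and Tcp1 and Cct5 among the proximal ones. The sequences of their second sites are printed to show the hexamer at each; where no signal was listed, the 30 bases end at the site.

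Cct5 distal: ctggAATAAAagcagctgtctggtaactgc
Cct6a proximal: aaaaATTACAtaagataagcatgttgtcta
Cct8 proximal: ttgtgtttgtagagtagaacttgcccagtg
Tcp1 distal: cagaAATAAAtctgcctgcctttgcctctg
Tcp1 middle: taggAATAAAtaggcctatgtgacacctcc

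In Cct5 both sites have an AATAAA 20 bases upstream, and they lie 68 bases apart. The proximal site, base 31590883 of chromosome 15, had 463, 513 and 636 RPM, and the distal site, base 31590815, had 219.8, 232 and 227 RPM. In RPM the proximal values varied more between libraries than the distal values. Neither was scaled to autosomal reads. The distal share was 29.9% ± 3.14, with a log2 ratio of -1.24 (SE 0.15). Here and below, SE is the moderated value of limma, which draws on the variance of all genes fitted. Without a variance trend it was 0.38 for Cct5. The difference in 3′ untranslated length is that between 45 and 113 bases.

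Tcp1 ended mostly at its first site, with ATTAAA, although both later sites carry AATAAA. The middle site, base 12924967, had 30.5, 39.8 and 29.6 RPM, and the distal site, base 12925063, had 22.8, 13.9 and 16.4 RPM. The distal share against the first site was 11.2% ± 2.45 and the log2 ratio -3.00 (SE 0.22). The level of the first site carries the uncertainty of the copy described above. The middle site also lies inside the copied block, which ends at base 12924970. Besides its main site the copy had 2 listed sites, with 0.101 RPM in all. If the reads at the main site of the copy are added to the first Tcp1 site, that site holds 91.4% ± 1.44 of the sum.

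Cct6a and Cct8 ended mostly at the site farther from the stop codon. In Cct6a the proximal site, with the rare hexamer ATTACA at base 129846079 of chromosome 5, had 74.5, 76.0 and 78.8 RPM. The distal AATAAA site at base 129846365, 286 bases on, had 526, 492 and 570.4 RPM. The distal share was 87.4% ± 0.649, the most even between libraries of the 4 genes. In Cct8 the proximal site at base 87483936 of chromosome 16 has no listed hexamer and had 228, 186 and 177 RPM. The distal site at base 87483862, with AATAAA, lay 74 bases on and had 1324, 1596 and 1252 RPM, a share of 87.5% ± 2.12. The log2 ratios were 2.79 (SE 0.15) and 2.82 (SE 0.15).

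Both of the closely spaced pairs, in Cct5 and Cct8, fall under a separation of 100 bases, as did 12.8% of the genes fitted. The median separation of those fitted was 840.5 bases. The listed sites are intervals, here 64 (proximal) and 48 (distal) bases wide in Cct5 and 46 and 50 in Cct8. The median width was 23 for the most used sites of genes at 10 RPM or more. A minimum of 1% of reads in place of 5% adds a further, weak site of Cct8, at base 87483331 with 16.5, 19.3 and 16.9 RPM, as the most distal one, and the ratio turns to -3.48. Under the same minimum the most proximal site of Cct6a is a weaker one, at base 129845969, and its ratio is 6.24. Cct7 then has a pair, with a ratio of -6.37 between its main site and a site with 1.21% of reads. A minimum of 10%, or the 2 most used sites, replaces the distal site of Tcp1 by the middle one, and its ratio is -2.07. Without a trend of the variance in limma, Cct5 was not called.

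**Figure D5:**
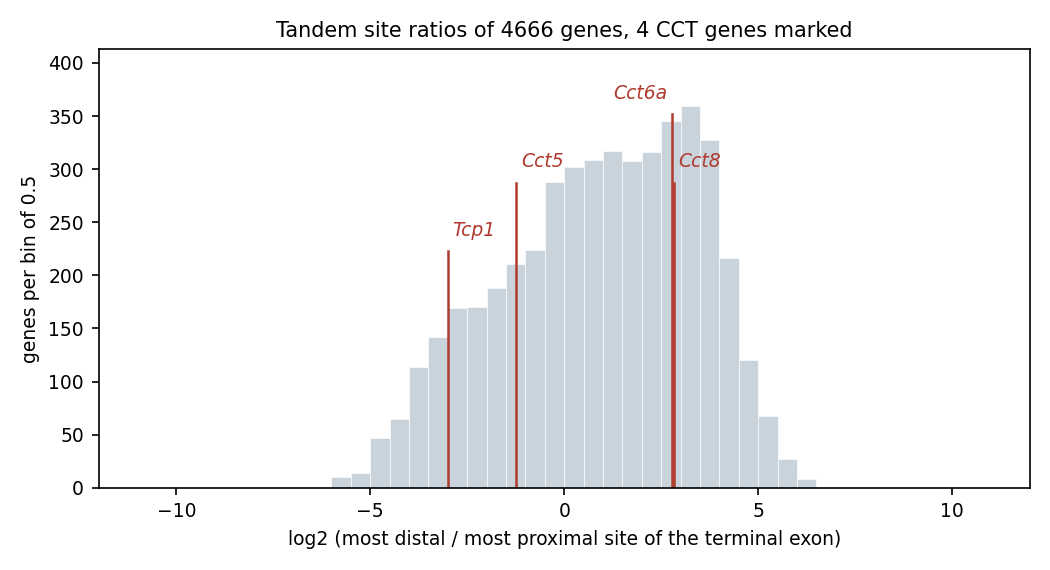
Number of genes by log2 ratio of the most distal to the most proximal terminal-exon site (bins of 0.5) over 4666 genes, with the 4 CCT genes that have such a pair marked by vertical lines, whose heights carry no value. Tcp1 at -3.00 and Cct5 at -1.24 lie on the proximal side, and Cct6a at 2.79 and Cct8 at 2.82, nearly on one another, on the distal side.

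Cct2 and Cct5 each had a site of 1% or more in an internal exon, with no listed hexamer. In Cct2 the site at base 117057860 of chromosome 10 had 42.2, 38.5 and 61.4 RPM, which is 12.2% ± 2.50 of the gene's reads. In Cct5 the site at base 31594138 had 14.98, 13.1 and 14.5 RPM, or 1.82%. Of the 20 bases after each site 11 are A, and both stretches contain gaaaaggagaag, a shared run of 12 bases. The 30 bases after each site are printed for that reason, with runs of at least 4 A in capitals.

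Cct2 exon site: agAAAAggagaagatgaaggagaaagttga
Cct5 exon site: agaagtacgAAAAggagaagtttgaagaga

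The same count was taken over all sites, with the value of these 2 sites, 11, as the limit. Of 1581 sites in non-terminal exons that were read in all 3 libraries, 46.6% had at least 11 A in the next 20 bases, against 5.28% of 21348 sites in terminal exons. Priming of the oligo(dT) primer inside a transcript is a known property of 3′-end protocols. Neither site met a threshold of 12 A or a run of 6 A, and whether the reads mark cleavage or such priming was not tested.

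The introns of CCT genes gave few reads, and the most used intron site, in Tcp1, lay at the end of a small nucleolar RNA (snoRNA). This site, at base 12922918, had 10.01, 7.14 and 7.11 RPM and lay 1 base past the 3′ end of Snora20. A site at base 12919716, with 3.79, 3.84 and 5.12 RPM, lay 6 bases before the end of the snoRNA Gm26130 and was assigned to it. It also falls in an exon of 3 Tcp1 transcripts, so it is not counted as an intron site. In Cct6a the site at base 129789675, 2 bases past Gm23245, had 0, 0.0673 and 0.640 RPM, the last of which alone exceeded the 3-read limit of 0.213 RPM. No such site had a listed hexamer. For Snora15, also inside Cct6a, no site at its end was listed. Among 506 snoRNAs inside genes at 10 RPM or more, 26.5% had a listed site within 15 bases of the 3′ end and 0 had one at the 5′ end. The most used intron sites of Cct3, Cct4 and Cct5 averaged 0.337, 0.0224 and 0.631 RPM, each with reads in 1 library.

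Of the 8 members 5 share a start region with a protein-coding gene on the other strand, within 1000 bases (Tcp1, Cct3, Cct5, Cct6a and Cct7). That arrangement holds for 11.2% of 20808 autosomal protein-coding genes and for 18.4% of the 7555 at 10 RPM or more. The partners were read at very different levels. Mrpl18, a mitochondrial ribosomal protein gene beside Tcp1, had 120, 115 and 126 RPM, and Psph, the phosphoserine phosphatase gene beside Cct6a, had 109, 128 and 108 RPM. Fam173b beside Cct5 had 8.31 ± 2.71 RPM. Tsacc beside Cct3 had 0.541, 0.539 and 0.853 RPM, above the 3-read limit in each library, next to a member at 672 RPM. Pradc1 beside Cct7 had 0, 0.0673 and 1.85 RPM, above the limit in replicate 3 only, next to a member at 1893 RPM. At the other end, Cct8 overlaps the tail of Usp16 by 192 bases, and the Usp16 site inside Cct8 had 19.8, 18.0 and 18.6 RPM.

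The prefoldin, phosducin-like and tubulin cofactor genes were each below at least 7 of the 8 CCT genes in mean level. All 6 prefoldin genes, which hand unfolded actin and tubulin to CCT, reached 10 RPM, with a median of 129.7 RPM beside 667 for the 8 CCT genes and 38.5 for all genes at 10 RPM or more. Pfdn1 led with 355 ± 42.6 RPM, followed by Pfdn2 (167 ± 10.7) and Pfdn5 (158.5 ± 25.7). The X-linked Vbp1 had 75.4 and 111 RPM in replicates 1 and 2. Its value in replicate 3, where only 216 reads lay outside the autosomes, was treated as missing. Of 4 phosducin-like and related cofactor genes 2 reached 10 RPM, Txndc9 (104 ± 8.47) and Pdcl (32.1 ± 6.78), with Pdcl3 at 6.88 ± 0.966. All 5 tubulin cofactor genes did, led by Tbcb (133 ± 22.5), Tbcd (91.6 ± 15.8) and Tbca (81.9 ± 20.6). Among heat shock genes Hsp90ab1, the constitutive cytosolic HSP90, had 3777 ± 309 RPM, and the transcription factors Hsf2 and Hsf1 had 72.3 ± 3.20 and 45.8 ± 10.9.

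Of 7 other chaperonin and chaperonin-like genes 3 reached 10 RPM. The mitochondrial chaperonin genes Hspe1 and Hspd1 had 639 ± 18.8 and 280 ± 28.2 RPM, and Mkks had 16.3 ± 5.93. The close relatives of CCT subunits, Cct6b (1.41 ± 1.12) and Cct8l1 (0.297 ± 0.303), were read at a small part of the levels of Cct6a and Cct8. Of 18 genes for CCT clients, 14 reached 10 RPM, with Tubb5 (2632 ± 88.9), Actb (2299 ± 194) and Tuba1c (1070 ± 113) highest. The other 4 included Actg1 (9.82 ± 4.22) and Tuba1b (3.13 ± 1.71), for which no search for copies was made.

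The genes whose 3 values lay nearest to those of the median CCT member (664, 700.02 and 681 RPM) were Stip1, Tomm7 and Eef1b2. Stip1, which encodes the HSP70 and HSP90 co-chaperone HOP, had 649, 709 and 699 RPM and a distance of 0.053 over the 3 log2 values. Tomm7, of the mitochondrial outer membrane translocase, lay at 0.066, and Eef1b2, a translation elongation factor gene, at 0.156. With 3 libraries of 1 group the likeness is one of level and describes these libraries only.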

How the data were processed

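In all 3 PAS-seq libraries of 1 group (replicates 1, 2 and 3), the deposited value of each site is in RPM, as read from the values. Alignment was to mm10 with GENCODE M21, per the deposited text files. The aligner, the site caller and the treatment of reads matching several places were not given in the sources used here. Whole reads were recovered from the deposited RPM (100% of values within 0.01 reads). Reads carry no stated molecular identifiers, so counts cover counting error only. A single read was worth 0.0902, 0.0673 and 0.0711 RPM, and 3 reads 0.271, 0.202 and 0.213 RPM. Sites were assigned to genes by terminal exon, other exon, intron, then 1000 bases downstream; the files do not explain their region codes, which were left out. Copies were sought with blastn 2.17.0 (at least 90% identity over 90 bases). The distal to proximal ratio was fitted on log2(RPM + 0.05) with limma 3.58.1, library as a term and a variance trend, over genes with at least 50 reads, with Benjamini-Hochberg adjustment; edgeR 4.0.16 on recovered reads was an alternative. The members, lists and tests were chosen with earlier results of these data known. Named were all 8 members, the 3 highest genes of each list, the 3 genes nearest in level, neighbours, and sites with at least 5% of a member's reads or most used in an intron or on the opposite strand; other genes and sites named were chosen after their values were seen.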

Additional observations from a re-analysis of the deposited data

Results flagged for a closer look

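A site outside the CCT gene windows, at base 12943760 of chromosome 17 in the copy of the Tcp1 end within Acat2, had reads above the 3-read limit in each library: 695, 604 and 702 RPM, with a mean of 667. The comparisons of gene levels do not use it.

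Within Cct2, on the strand opposite to it, a site with an AATAAA signal at base 117059512 of chromosome 10 had 2.26, 0.875 and 1.85 RPM, with a mean of 1.66. No GENCODE M21 gene is annotated on that strand there, and each value is above the library's 3-read limit. The most used opposite-strand sites in the windows of Cct5 (base 31590119) and Cct7 (base 85462869) averaged 2.21 and 0.359 RPM. They were above the limit in 2 libraries and 1 library. The first lies past the 3′ end of Cct5, in Cmbl, a gene annotated on that strand. Those within Tcp1 and Cct6a averaged 0.0224 and 0.0449 RPM, below the limit in each library.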

How the results depend on the processing

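Over 4666 genes, 28.9% were called distal and 12.8% proximal. Of the 8 CCT genes 4 could be tested, and 2 were called distal and 2 proximal. These counts stood with a pseudocount of 0.5 RPM, a site minimum of 10%, the most used pair of sites, no filter on gene level, edgeR on recovered reads, and without each replicate (2 and 2 each time), although the ratio of Tcp1 moved from -3.00 to -2.07 with the minimum of 10% and with the most used pair. They were 1 distal and 4 proximal at a site minimum of 1%, where the ratio of Cct6a was 6.24 and that of Cct8 -3.48, since other end sites then enter. With end sites at least 100 bases apart they were 1 and 1, since Cct5 and Cct8 have no such pair. Limma without a variance trend, chosen after seeing the data, left 1 proximal call. It called 701 distal and 296 proximal genes over all 4666 genes, against 1349 and 599. The number of genes tested changes with the site minimum. At 1% the distal count over all genes was 2933 of 6767 tested (863 proximal). At 10% it was 676 of 3419 (386 proximal). Without replicate 2 it was 747 of 4666 (386 proximal). The summed level of 6862 RPM became 7887 when scaled to autosomal reads, because the denominator shrinks, and 7529 with the copy site of Tcp1, an alternative added after seeing the data. It was 6849 without downstream sites and 6622 to 7026 without 1 replicate. The ratios are paired within libraries, with library as a term in each fit. Depth limits sites under 0.271, 0.202 and 0.213 RPM.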
